A study of Mus musculus with 8 samples.

Results

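The genes described here carry glucose into the cell and through glycolysis in brown adipose tissue (BAT), and they were chosen by symbol as a list of 40 genes out of 56953 Ensembl genes in the count table. The list holds glucose transporters, hexokinases, the enzymes of upper and lower glycolysis, the bifunctional enzymes that set the activity of phosphofructokinase, lactate dehydrogenases and lactate transporters, enzymes of glycogen turnover and of the pentose phosphate pathway, and the glucose-responsive gene Txnip. BAT RNA was sequenced from 4 control mice (CTR) and 4 mice with cancer-associated cachexia (CAC), 1 library per mouse. All mice were C57BL/6J, wild type, male or female and 8 to 10 weeks old at injection, and they were housed at 21 °C. CTR mice were given PBS alone, and CAC mice were given 3000000 Lewis lung carcinoma (LLC) cells, a mouse lung cancer line, under the skin of the flank in 100 μl of PBS. The animals were then followed for 21 days, and the study kept only injected mice that grew a tumour. The sex of each mouse was not used here.

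Brown adipocytes take up glucose through the insulin-regulated transporter GLUT4 and through GLUT1, and trap it as glucose phosphate through hexokinase. Glycolysis then splits the sugar to pyruvate, which enters the mitochondria, is turned to lactate, or supplies glycerol for triglyceride synthesis, while side branches store glycogen or make NADPH. Flux is set in large part at phosphofructokinase, whose activator is made and removed by the PFKFB enzymes, and lactate leaves or enters the cell through monocarboxylate transporters.

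The CTR libraries held 2454493 to 4827956 counts in all, and the CAC libraries held 1823167 to 3392538. Levels are given in the CPM unit of edgeR, which is a gene's share of the counts after scaling of the library sizes by the TMM method, and 3 counts, the most that a count of 0 allows, equalled 0.661 to 1.62 CPM. Such limits cover counting error only. The members held 1.54% to 1.58% of the counts in the CTR libraries and 1.55% to 2.00% in the CAC libraries, with CAC replicate 2 the highest. The brown adipocyte list, which includes Ucp1, was at 19610 to 21979 summed CPM in CTR and 19355 to 21622 in CAC (exact permutation p = 1.0, 4 against 4), so the summed level of this list overlapped between the groups. Within it 9 of 15 genes were higher in CAC and 6 were lower, and 1 was called higher by edgeR, beside 0.739% of all genes. With an unadjusted p below 0.05, 1 was higher and 4 were lower, beside 7.01% and 5.93% of all genes. Over the 15 genes the log2 fold change in CAC ran from -0.71 to 0.73, with a median of 0.03. It was 0.03 for Ucp1, 0.18 for Cidea and 0.04 for Adipoq (edgeR adjusted p = 0.935, 0.568 and 0.891). The lipid droplet gene Plin1 was at 644 to 680 CPM in CTR and 489 to 617 CPM in CAC (log2 fold change -0.27, edgeR adjusted p = 0.192). Of other cell types, the summed level of 24 skeletal muscle genes was 2109 to 5153 CPM in CTR and 4282 to 8031 CPM in CAC, and all 24 were higher in CAC, 2 of them with an adjusted p below 0.05, beside 0.739% of all 9876 genes tested. Erythrocyte genes (9 of 10 listed found) were at 6190 to 19288 CPM in CTR and 14651 to 44358 CPM in CAC. The sum of 14 neutrophil genes was 14.9 to 17.8 CPM in CTR and 183 to 455 CPM in CAC, and that of 13 macrophage genes was 229 to 257 CPM and 316 to 425 CPM. The sum of 10 endothelial genes was 1319 to 1350 CPM in CTR and 1120 to 1588 CPM in CAC, so the groups overlapped. Of the tested genes of these lists, 1 of 7 erythrocyte, 3 of 5 neutrophil, 2 of 9 macrophage and 2 of 9 endothelial genes were called higher. The share of all genes called higher was 0.739%. Of the 14 neutrophil genes, 5 were tested. With so low a sum in CTR, such genes can pass the low-count filter through the CAC libraries alone. Their direction and their share called are therefore a description only. No listed marker that was found was at 0 in all 8 libraries. In bulk tissue a change in the number of cells of a type and a change in RNA per cell cannot be told apart.

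Most genes of glucose uptake and glycolysis did not pass the test between CTR and CAC BAT. In the quasi-likelihood test of edgeR, with p-values adjusted over all genes by the Benjamini-Hochberg method, 2 of the 34 members tested passed an adjusted p of 0.05, and both were higher in CAC: the lactate transporter gene Slc16a3 and Pfkfb3, which makes the activator of phosphofructokinase. Among all 9876 genes tested, 0.932% were called, and 0.739% were called higher. With an unadjusted p below 0.05, 4 members were higher (Slc16a3, Pfkfb3, Aldoa and Pgam2), which is 11.8% of those tested against 7.01% of all genes. In the other direction 2 members were lower (Slc16a1 and Taldo1), 5.88% against 5.93% of all genes. The CAC libraries all lay above the CTR libraries for 3 members (Slc16a3, Pfkfb3 and Aldoa) and below them for 1 (Taldo1), against 3.64% and 3.4% of all genes. The counts of higher members include Slc16a3, which passed the low-count filter through 0 CTR and 4 CAC libraries, so its direction was fixed by the filter and the shares are given as a description only. The log2 fold change of CAC over CTR (log2FC), with its standard error (SE), comes from the same fit. Its median over the tested members was 0.02, with 20 higher and 14 lower in CAC, and that over all genes was 0. Without the muscle-enriched forms Pfkm, Eno3 and Pgam2 it was 0.0 over 31 members. The counts of called members moved with the libraries used: leaving out 1 library at a time gave 0 to 2 called members, with 0 when replicate 2 or 3 of either group was left out.

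**Figure D1:**
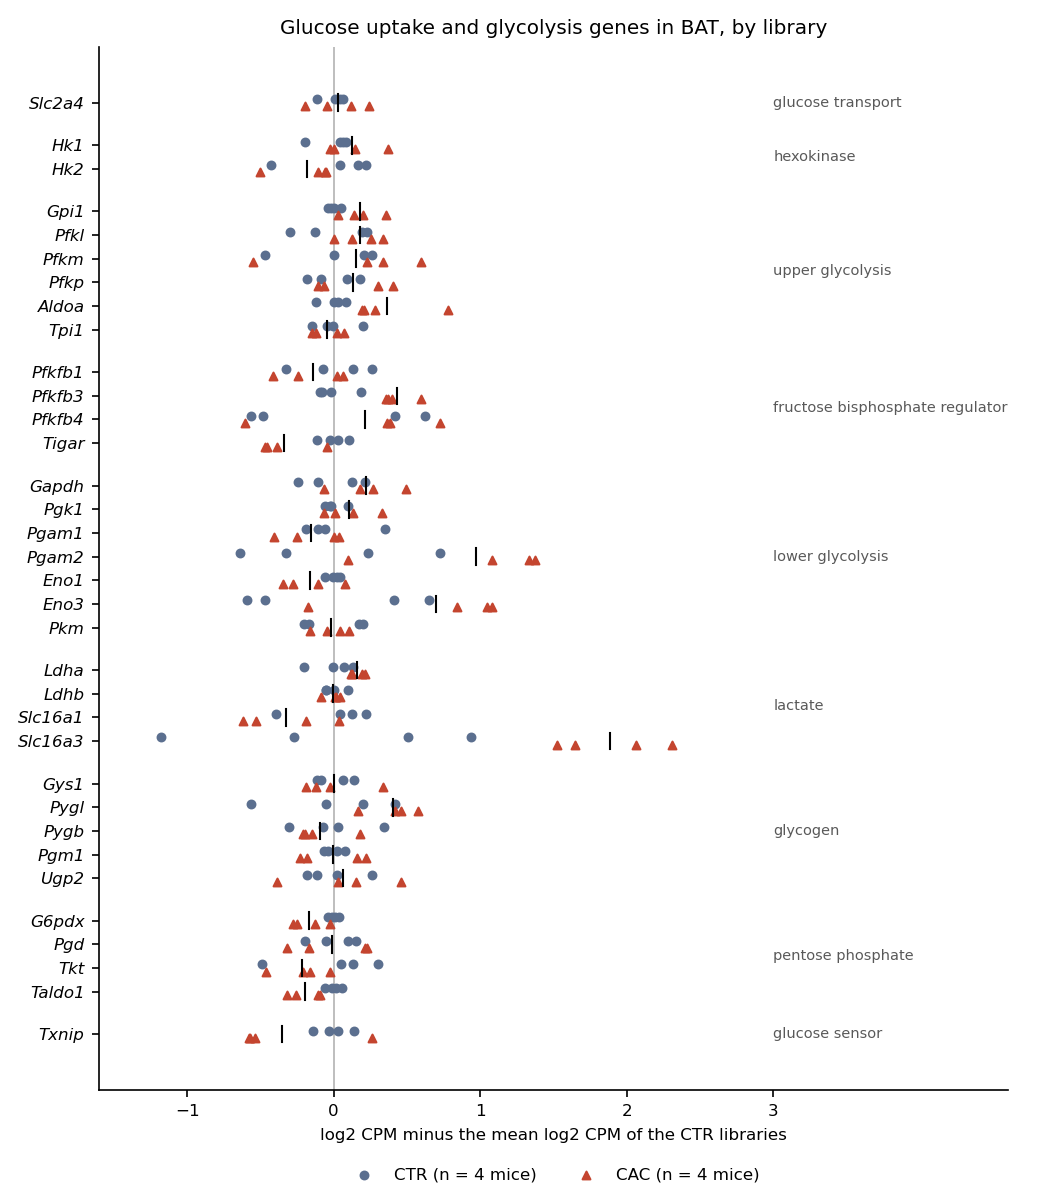
Level of each of the 34 tested genes in each library, as log2 CPM minus the mean of the 4 CTR libraries, ordered by role, with circles for CTR, triangles for CAC and a black bar for the CAC mean. Only Slc16a3, Pfkfb3 and Aldoa have all CAC libraries above all CTR libraries, and Taldo1 has them all below.

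Of the lactate transporters, Slc16a3 was called and Slc16a1 was not. Slc16a3 (ENSMUSG00000025161.17, chr11:120948480-120960868 of GRCm38, plus strand) encodes MCT4, a low-affinity transporter known for lactate export from glycolytic cells. Its level was 2.88, 2.13, 1.24 and 0.66 CPM in the CTR libraries and 4.32, 7.44, 4.69 and 6.28 CPM in the CAC libraries, on 3 to 8 counts per CTR library and 8 to 18 per CAC library. Every CAC library lay above every CTR library, although the levels were low throughout. The mean went from 1.73 ± 0.98 CPM to 5.68 ± 1.45 CPM (SD, n = 4), a log2FC of 1.74 (SE 0.40, edgeR adjusted p = 0.0343) or 3.35-fold. Slc16a3 passed the low-count filter only through the CAC libraries, since 0 CTR and 4 CAC libraries reached its minimum of 3.52 CPM, so among the genes tested it had to differ in this direction. The call was held in 2 of the 8 fits that left out 1 library, those without CTR replicate 1 and without CAC replicate 1. In the others the edgeR adjusted p was 0.0615 to 0.113, with a log2FC of 1.40 to 2.06 over all 8. The call was also lost with limma-trend on the deposited normalized signal (log2FC 1.64, limma adjusted p = 0.0575). Neutrophil and macrophage genes were also higher in every CAC library than in every CTR library (exact permutation p = 0.0286 for each sum, the smallest that 4 against 4 allows), and their part in the Slc16a3 result was not tested. Skeletal muscle genes were higher too (24 of 24), and with their log2 sum as a covariate Slc16a3 was not called (log2FC 1.45, edgeR adjusted p = 0.543).

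Slc16a1 (ENSMUSG00000032902.2) encodes MCT1, which carries lactate, pyruvate and ketone bodies in either direction. It was at 135, 120, 88.8 and 127 CPM in CTR and 119, 102, 80.6 and 75.6 CPM in CAC. The groups overlapped, with CTR replicate 3 as low as the CAC libraries. The log2FC of -0.33 (SE 0.15) had an unadjusted p of 0.0405 in edgeR and did not pass the adjustment (adjusted p = 0.356). With the log2 muscle marker sum as a covariate its sign turned, to 0.12 (adjusted p = 0.878). Within a library, the log2 ratio of Slc16a3 to Slc16a1 counts, with 0.5 added to each count, averaged -6.13 ± 0.85 over the CTR libraries and -4.01 ± 0.51 over the CAC libraries (SD, n = 4), without overlap. This difference of 2.11 had an exact two-sided permutation p of 0.0286, or 0.229 after Benjamini-Hochberg adjustment over the 8 ratios compared. As a ratio it takes in the same Slc16a3 counts and adds no separate evidence for them.

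The lactate dehydrogenase subunits, which interconvert pyruvate and lactate, did not pass the test. Ldha was at 681, 780, 820 and 859 CPM in CTR and 851, 907, 853 and 893 CPM in CAC, a log2FC of 0.16 (SE 0.09, edgeR adjusted p = 0.499). CAC replicates 1 and 3 lay just below CTR replicate 4, so the groups overlapped. Ldhb was at 253 to 281 CPM in CTR and 247 to 270 CPM in CAC, with a fold change of 1.0 and a 95% interval of the log2FC from -0.19 to 0.18. Their log2 ratio was 1.58 ± 0.15 in CTR and 1.74 ± 0.06 in CAC (exact permutation p = 0.114, n = 4).

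The RefSeq promoter of Slc16a3 is shown because it is one of the pair of members with a called increase. The window is the 250 bases before the start that RefSeq lists, which lies within the longer GENCODE gene given above, at chr11:120948817-120949066 of GRCm38.p6 on the plus strand, 5′ to 3′, and capitals mark ACGTG or GCGTG, the core letters known from binding sites of the hypoxia-inducible factors, searched on both strands:
Slc16a3: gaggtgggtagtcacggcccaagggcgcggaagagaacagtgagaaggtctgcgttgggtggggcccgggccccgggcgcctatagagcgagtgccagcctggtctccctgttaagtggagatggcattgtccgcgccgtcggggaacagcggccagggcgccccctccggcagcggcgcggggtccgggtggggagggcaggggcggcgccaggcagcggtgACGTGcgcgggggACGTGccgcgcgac
It holds ACGTG 27 and 14 bases before the start. Among 32851 RefSeq promoter windows of the same length, 16.6% hold ACGTG, 28.2% hold GCGTG and 38.6% hold either on one of the strands. Of the 57 windows of the 38 members matched by symbol, 42 (73.7%) hold either. The member windows and all windows were not matched for base composition, so these shares are not a like comparison. Such a match is a description of letters, not of a site in use.

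Among the genes that set the activity of phosphofructokinase, Pfkfb3 rose and its relatives did not pass the test. Pfkfb3 (ENSMUSG00000026773.20, chr2:11471433-11554077 of GRCm38, minus strand) encodes the bifunctional enzyme with the strongest kinase side, which makes the activator. It was at 244, 231, 234 and 281 CPM in CTR and 325, 372, 319 and 315 CPM in CAC. The lowest CAC library was above the highest CTR library, and CAC replicate 2 stood above the other CAC libraries. The mean was 247 ± 23.0 CPM over the CTR libraries and 333 ± 26.7 CPM over the CAC libraries (SD, n = 4), a log2FC of 0.43 (SE 0.10, 95% interval 0.22 to 0.63, edgeR adjusted p = 0.0379), or 1.34-fold. The call was held when replicate 4 of CTR or replicate 1 or 4 of CAC was left out, and was lost without any of the other 5 libraries (adjusted p = 0.0724 to 0.14), with a log2FC of 0.37 to 0.50 over all 8. It was also lost with upper quartile normalization, the replicate block and the muscle covariate (edgeR adjusted p = 0.0536, 0.0586 and 0.216). The log2FC in these fits was 0.40, 0.43 and 0.55, in the same order. With the muscle covariate the SE was 0.15, beside 0.10 in the main fit. The skeletal muscle, erythrocyte, neutrophil and macrophage sums given above were higher on average in CAC as well. The part of each of them in the Pfkfb3 result was not tested. Pfkfb3 overlaps the predicted genes Gm37975 on its own strand and Gm10851 on the opposite strand, and the counting strand is not given in the sources used here.

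RefSeq lists more than one start for Pfkfb3, and the windows of 250 bases before 2 of them, at chr2:11553930-11554179 and at chr2:11502091-11502340 of GRCm38.p6 on the minus strand, are shown 5′ to 3′ with the same letters in capitals, together with CACGTG, the palindrome known as an E-box, which contains ACGTG on both strands:
Pfkfb3 upstream start: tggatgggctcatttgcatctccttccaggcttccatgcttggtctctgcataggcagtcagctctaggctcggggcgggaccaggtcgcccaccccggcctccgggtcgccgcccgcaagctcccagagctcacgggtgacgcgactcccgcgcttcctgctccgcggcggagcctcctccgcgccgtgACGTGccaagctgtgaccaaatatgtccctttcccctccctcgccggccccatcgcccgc
Pfkfb3 internal start: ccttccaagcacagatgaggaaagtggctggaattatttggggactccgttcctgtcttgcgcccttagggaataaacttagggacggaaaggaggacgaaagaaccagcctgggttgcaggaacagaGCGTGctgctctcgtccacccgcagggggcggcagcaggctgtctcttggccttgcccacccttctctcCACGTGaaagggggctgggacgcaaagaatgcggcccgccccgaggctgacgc
The window of the upstream start holds ACGTG 60 bases before it. The window of the internal start lies wholly within the annotated gene, while that of the upstream start lies partly within it. The internal window holds CACGTG, found in 6.02% of all windows. It has ACGTG 52 and 53 bases before the start on its plus and minus strand, and GCGTG 122 bases before the start. Reads at the gene level do not tell which start was used.

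The other PFKFB genes were at lower counts. Pfkfb1, the liver and muscle form, was at 11.9 to 17.8 CPM in CTR and 11.2 to 15.5 CPM in CAC (edgeR adjusted p = 0.799). Pfkfb4 was at 2.52 to 5.73 CPM in CTR and 2.44 to 6.15 CPM in CAC (edgeR adjusted p = 0.889), and Pfkfb2 was below the low-count filter, at 0 to 0.36 CPM and 0 to 1.08 CPM. Tigar, a phosphatase that removes the activator of phosphofructokinase, was at 17.6, 16.8, 16.2 and 15.2 CPM in CTR and 11.9, 16, 12.0 and 12.5 CPM in CAC. All CAC libraries except replicate 2 lay below the CTR libraries, and the log2FC of -0.34 (SE 0.18) did not pass (edgeR adjusted p = 0.434).

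**Figure D2:**
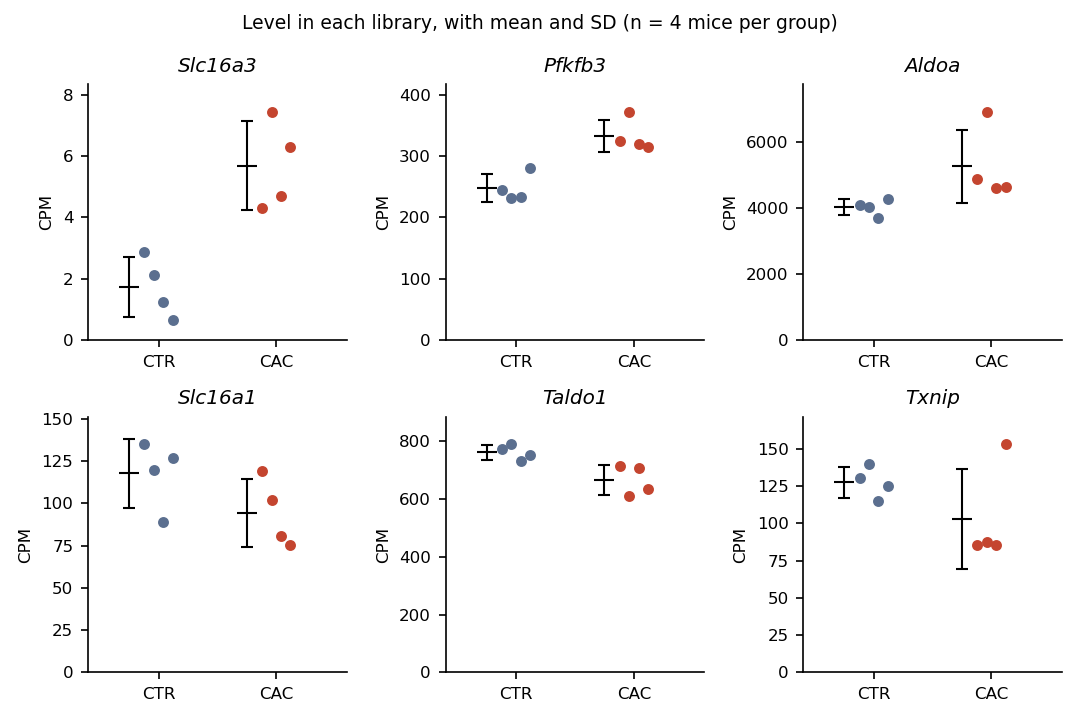
CPM of 6 members in each library, with replicates 1 to 4 from left to right, CTR in blue and CAC in red, and the mean with its SD at the left of each group (n = 4 mice per group). Slc16a3 and Pfkfb3 have an adjusted p below 0.05, Aldoa and Taldo1 do not overlap between the groups, and Txnip is low in 3 CAC libraries and high in CAC replicate 4.

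Genes of glucose uptake showed no difference beyond the spread. Slc2a4, which encodes GLUT4, was at 249, 251, 242 and 222 CPM in CTR and 262, 285, 210 and 234 CPM in CAC. The CAC libraries lay on both sides of the CTR libraries, and the log2FC was 0.04 (SE 0.10, 95% interval -0.18 to 0.25, edgeR adjusted p = 0.934). Slc2a1, which encodes the basal transporter GLUT1, was below the filter at 0.41 to 1.44 CPM in CTR and 0.59 to 3.24 CPM in CAC (exact permutation p = 0.257, n = 4). Slc2a3, the neuronal and leukocyte form GLUT3, was at 0.22 to 0.83 CPM and 0 to 2.16 CPM (exact permutation p = 0.229, n = 4). Both genes were on 0 to 6 counts per library, so these values have a wide counting error.

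The hexokinases trap glucose in the cell. Hk2, the insulin-responsive form of muscle and fat, was at 497, 562, 542 and 358 CPM in CTR and 467, 463, 448 and 341 CPM in CAC. Replicate 4 was the lowest in each group, and the log2FC was -0.19 (SE 0.13, 95% interval -0.47 to 0.09, edgeR adjusted p = 0.60). Hk1, the widely expressed form, was at 25 to 30.3 CPM in CTR and 28.1 to 37.0 CPM in CAC (edgeR adjusted p = 0.719). Hk3, a form of myeloid cells, was below the filter, with 4 counts (1.07 CPM) in CTR replicate 2, 0.5 counts in CAC replicates 3 and 4 and 0 in the other libraries (exact permutation p = 1.0, n = 4). The log2 ratio of Hk2 to Hk1 was 4.07 ± 0.37 in CTR and 3.76 ± 0.39 in CAC (exact permutation p = 0.314, n = 4).

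In upper glycolysis, 0 of 6 tested genes passed the adjusted threshold in edgeR, and the unadjusted p was below 0.05 for 1 of them, the higher Aldoa, beside 0.932% and 7.01% of all genes. Aldoa (ENSMUSG00000030695.17, chr7:126795234-126800751 of GRCm38, minus strand) encodes the aldolase that splits the phosphorylated hexose. It was at 4107, 4026, 3706 and 4266 CPM in CTR and 4889, 6913, 4608 and 4639 CPM in CAC. No CAC library reached down to the CTR range, by a small margin in 3 of them and by far in CAC replicate 2. The log2FC was 0.39 (SE 0.12, unadjusted p = 0.00311, edgeR adjusted p = 0.119), and it was 0.23 without CAC replicate 2. A second Ensembl ID with the symbol Aldoa held at most 0.5 counts in any library. All 8 libraries hold fractions of reads on Aldoa, which other loci share, so its counts are less certain.

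Gpi1, the isomerase between glucose phosphate and fructose phosphate, was at 777, 764, 803 and 755 CPM in CTR and 892, 991, 853 and 792 CPM in CAC. Only CAC replicate 4 fell within the CTR range, and the log2FC of 0.19 (SE 0.09) did not pass (edgeR adjusted p = 0.392). Pfkl, the liver form of phosphofructokinase, was at 356, 399, 500 and 512 CPM in CTR and 552, 522, 476 and 438 CPM in CAC, a log2FC of 0.17 (SE 0.12, edgeR adjusted p = 0.576). The spread within CTR was as wide as the distance between the groups. Pfkp, the platelet form, was at 111 to 143 CPM in CTR and 117 to 167 CPM in CAC (edgeR adjusted p = 0.697), and the log2 ratio of Pfkp to Pfkl differed by -0.05 (exact permutation p = 0.857, n = 4). Tpi1, which balances the triose phosphates, was at 85.6 to 109 CPM in CTR and 85.4 to 99.7 CPM in CAC (edgeR adjusted p = 0.925). Aldoc, the brain aldolase, was below the filter at 0.88 to 1.8 CPM in CTR and 0 to 1.62 CPM in CAC.

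Lower glycolysis, which makes ATP and pyruvate from triose phosphate, had 0 called genes among 7 tested in the main fit, beside 0.932% of all genes. The unadjusted p was below 0.05 for 1 of them, the higher muscle-enriched Pgam2, which is read apart below, beside 7.01% of all genes. Gapdh, often used as a reference gene, was at 134, 122, 157 and 167 CPM in CTR and 174, 202, 163 and 137 CPM in CAC. Its groups overlapped, and the log2FC was 0.22 (SE 0.12, 95% interval -0.04 to 0.48, edgeR adjusted p = 0.488). Pkm, the pyruvate kinase of non-hepatic tissue, was at 1935, 1983, 2511 and 2558 CPM in CTR and 2397, 2160, 2292 and 1994 CPM in CAC, a log2FC of -0.02 (SE 0.10, edgeR adjusted p = 0.957). Pgk1, the kinase that makes the first ATP of the pathway, was at 102 to 114 CPM in CTR and 102 to 134 CPM in CAC (edgeR adjusted p = 0.748). Pgam1, the widely expressed mutase, was at 406 to 589 CPM in CTR and 348 to 475 CPM in CAC (edgeR adjusted p = 0.631). Eno1, the widely expressed enolase, was at 216 to 231 CPM in CTR and 177 to 237 CPM in CAC (edgeR adjusted p = 0.562). None of these genes separated the groups. The neuronal enolase gene Eno2 was below the filter, at 0 to 1.98 CPM in CTR and 0 to 0.54 CPM in CAC (exact permutation p = 0.143, n = 4). Gapdh, Pgam1 and Eno1 hold fractions of reads in 8 of 8 libraries and Pkm in 7, so part of their counts is shared with other loci.

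**Figure D3:**
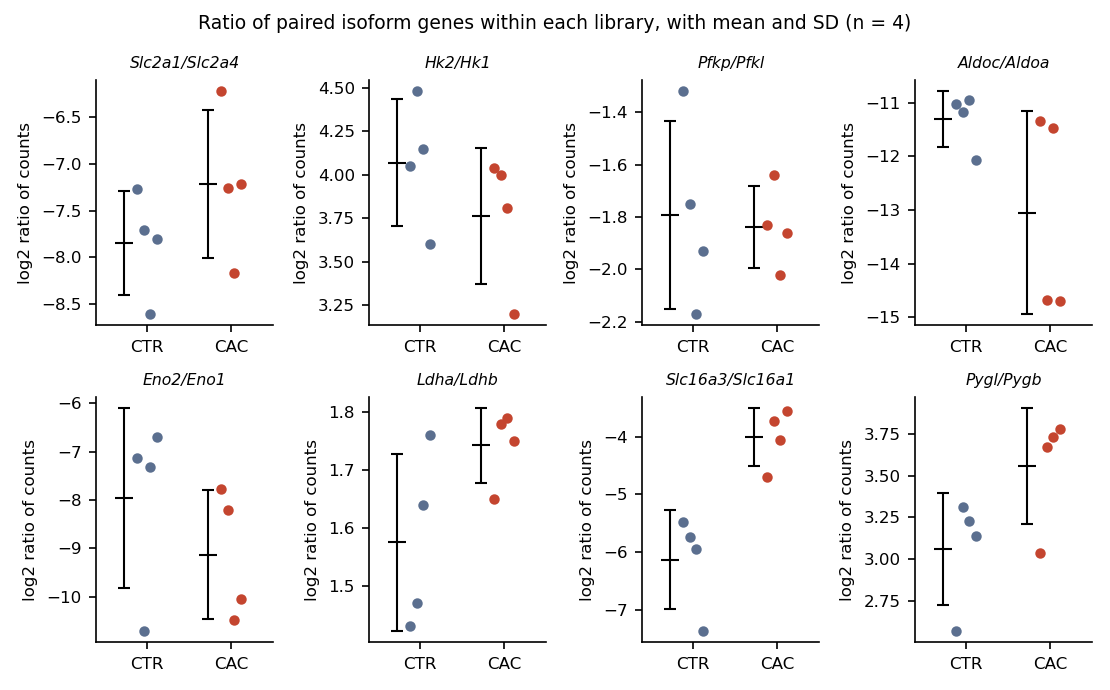
Log2 ratio of the counts of 2 isoform genes within each library, with 0.5 added to each count, for 8 pairs, with CTR in blue, CAC in red and the mean with its SD at the left of each group (n = 4). Each panel has its own axis, which does not start at 0, and Slc16a3/Slc16a1 is the one pair whose groups do not overlap, while Aldoc, Eno2 and Slc2a1 rest on a few counts or none.

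The muscle-enriched members Pgam2, Eno3 and Pfkm are read apart, because the muscle marker sum differed between the libraries. For its mean log2 value in CAC against CTR, the exact permutation p was 0.0571 (n = 4 per group). Pgam2, the muscle phosphoglycerate mutase, was at 19.4, 35.7, 50.2 and 24.3 CPM in CTR and 32.4, 78.7, 76.5 and 64.1 CPM in CAC. CTR replicates 1 and 4 and CAC replicate 1 were the low libraries of their groups both for Pgam2 and for the muscle marker sum. That sum was 2326, 4062, 5153 and 2109 CPM in CTR and 4282, 6984, 8031 and 7270 CPM in CAC. The log2FC of Pgam2 was 0.99 (SE 0.38, unadjusted p = 0.0358, edgeR adjusted p = 0.339), and with the log2 muscle sum as a covariate it was -0.07 (SE 0.22, adjusted p = 0.947). With the replicate block, which joins samples that share only a number, Pgam2 was called (log2FC 0.99, SE 0.14, edgeR adjusted p = 0.000815). Eno3, the muscle enolase, was at 41.7, 83.6, 98.8 and 45.6 CPM in CTR and 55.7, 133, 113 and 130 CPM in CAC, with a log2FC of 0.69 (SE 0.40, edgeR adjusted p = 0.541) and -0.38 with the covariate. Pfkm, the muscle phosphofructokinase, was at 19.8, 23.7, 22.8 and 14.3 CPM in CTR and 13.5, 25, 23.1 and 30.0 CPM in CAC, with a log2FC of 0.23 (SE 0.21, edgeR adjusted p = 0.705) and -0.41 with the covariate. For all 3 the groups overlapped, and CAC replicate 1, the CAC library with the least muscle RNA, was also the lowest CAC library. With the same covariate, the log2FC was 0.55 (SE 0.15) for Pfkfb3 and 1.45 (SE 0.67) for Slc16a3, neither called (edgeR adjusted p = 0.216 and 0.543). The reason for the lost calls was not tested.

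**Figure D4:**
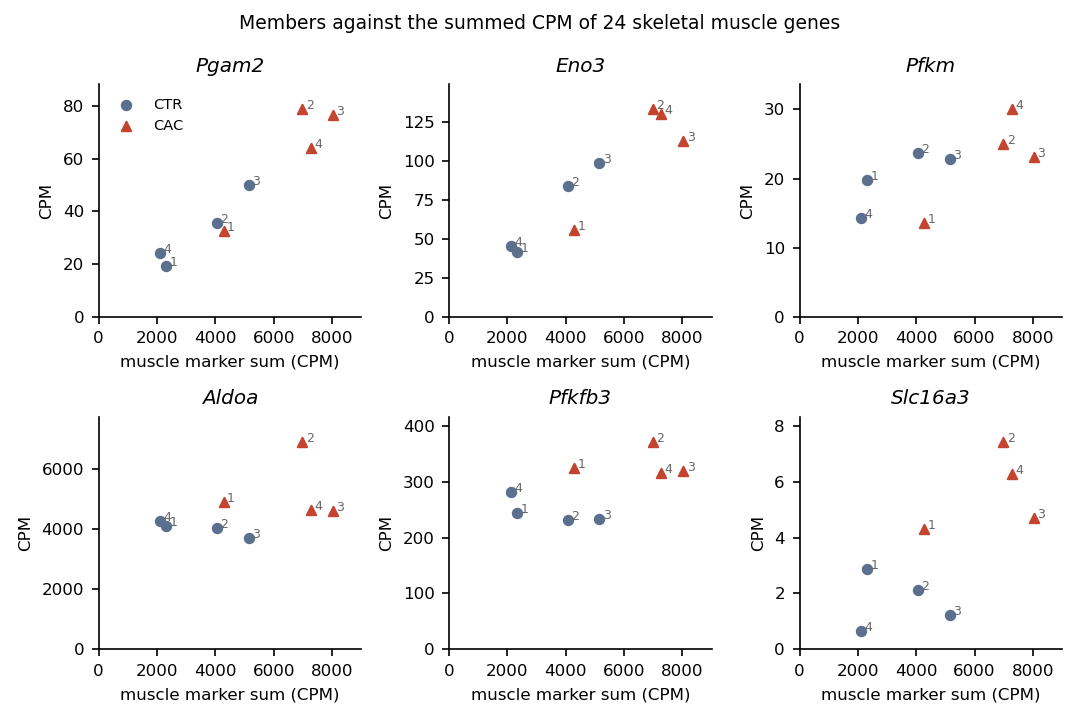
CPM of 6 members against the summed CPM of 24 skeletal muscle genes in the same library, with replicate numbers beside the points, circles for CTR and triangles for CAC. Pgam2 and Eno3 are lowest in CTR replicates 1 and 4 and in CAC replicate 1, the libraries with the least muscle RNA in their group.

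Glycogen and pentose phosphate genes had no call in edgeR, with 5 and 4 tested, beside 0.932% of all genes. With so few genes this count is a description only. Pygl, the liver form of glycogen phosphorylase, was at 497, 710, 846 and 987 CPM in CTR and 827, 987, 1014 and 1098 CPM in CAC. CTR replicates 3 and 4 reached into the CAC range, and the log2FC was 0.37 (SE 0.19, edgeR adjusted p = 0.463). Pygb, the brain form of the same enzyme, was at 71.4 to 112 CPM in CTR and 76.2 to 100 CPM in CAC, and the log2 ratio of Pygl to Pygb was 3.06 ± 0.34 in CTR and 3.56 ± 0.35 in CAC (exact permutation p = 0.114, n = 4). Gys1, the glycogen synthase of muscle and fat, was at 172 to 205 CPM in CTR and 164 to 236 CPM in CAC (edgeR adjusted p = 0.979). Pgm1, which links glucose phosphate to glycogen, was at 400 to 440 CPM and 357 to 487 CPM (adjusted p = 0.992), and Ugp2, which makes the UDP-glucose donor, at 39.9 to 54.3 CPM and 34.6 to 62.2 CPM (adjusted p = 0.874). In all 3 the CAC libraries reached further than the CTR libraries on both sides.

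Of the pentose phosphate genes, Taldo1 (ENSMUSG00000025503.6), the transaldolase of the non-oxidative branch, was at 772, 790, 731 and 754 CPM in CTR and 713, 610, 709 and 636 CPM in CAC. Every CAC library lay below every CTR library, with a narrow gap. The log2FC of -0.19 (SE 0.09) had an unadjusted p of 0.0434 and did not pass the adjustment (edgeR adjusted p = 0.363). Tkt, the transketolase, was at 919 to 1590 CPM in CTR and 934 to 1265 CPM in CAC (edgeR adjusted p = 0.544). G6pdx, the dehydrogenase that makes the first NADPH, was at 103 to 109 CPM in CTR and 87.7 to 104 CPM in CAC (edgeR adjusted p = 0.547). Pgd, the next dehydrogenase, was at 790 to 1006 CPM and 726 to 1060 CPM (edgeR adjusted p = 0.998).

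Txnip (ENSMUSG00000038393.15), which is induced by glucose and restrains glucose uptake, was at 130, 140, 115 and 125 CPM in CTR and 85.4, 87.7, 85.6 and 153 CPM in CAC. Replicates 1 to 3 of CAC lay below all CTR libraries, and replicate 4 was above them all. The log2FC was -0.31 (SE 0.17, edgeR adjusted p = 0.491). Without CAC replicate 4 it was -0.56 with an adjusted p of 0.0225, and that library decides the call.

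Other genes of the pathway were read from lists that do not hold the members. Of 69 further genes of glucose and pyruvate metabolism, 46 were tested, 15 of them higher and 31 lower in CAC. In edgeR 0 of the 46 were called, beside 0.932% of all genes. The unadjusted p was below 0.05 for 6 higher and 3 lower, beside 7.01% and 5.93% of all genes. The median log2FC of the 46 was -0.10, beside 0 over all genes. The smallest p belonged to Gfpt2, which opens the hexosamine branch, at 2.88, 1.86, 0.83 and 2.65 CPM in CTR and 5.41, 4.25, 4.98 and 8.02 CPM in CAC (log2FC 1.41, edgeR adjusted p = 0.0623). Like Slc16a3, it passed the filter only through the CAC libraries. Bpgm, the mutase that makes bisphosphoglycerate in red cells, had a log2FC of 0.72 (edgeR adjusted p = 0.148) beside the erythrocyte genes, which were also higher in CAC, and their part in it was not tested. Gyg, the glycogen primer glycogenin, was at 64.1 to 78.3 CPM in CTR and 80.3 to 102 CPM in CAC (edgeR adjusted p = 0.166). The lowest log2FC of the list, -3.96 (SE 1.83, edgeR adjusted p = 0.439), belonged to Phkg1, a catalytic subunit of muscle phosphorylase kinase, which was named after its values were seen. It was at 528, 10.1, 9.13 and 12.8 CPM in CTR and 7.03, 10.6, 11.1 and 6.28 CPM in CAC, so CTR replicate 1 alone stood apart and the groups overlapped.

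Of 25 regulators of glucose uptake and glycolysis, 20 were tested and 0 called in edgeR, beside 0.932% of all genes. The unadjusted p was below 0.05 for 2 higher and 2 lower, beside the same 7.01% and 5.93% of all genes. The median log2FC of the 20 was -0.04. Tbc1d4, which holds GLUT4 vesicles inside the cell until insulin acts, was at 25.2 to 40.2 CPM in CTR and 40.8 to 47.0 CPM in CAC (edgeR adjusted p = 0.231). Stx4a, the membrane syntaxin of GLUT4 vesicle fusion, was at 21.3 to 26.5 CPM in CTR and 15.3 to 18.9 CPM in CAC (edgeR adjusted p = 0.244). Irs2, an insulin receptor substrate that fasting raises in liver, was at 7.56, 15.7, 12.0 and 10.6 CPM in CTR and 49.2, 17.5, 16.1 and 52.3 CPM in CAC (log2FC 1.53, SE 0.50, edgeR adjusted p = 0.274). CAC replicates 1 and 4 were far above all other libraries, and replicates 2 and 3 were just above the CTR range.

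Of 19 listed targets of the hypoxia-inducible factors that are not members, 14 were tested, 9 of them higher in CAC, and their median log2FC was 0.14. With an unadjusted p below 0.05 in edgeR, 3 were higher and 0 lower, beside 7.01% and 5.93% of all genes. Bnip3, a mitophagy receptor, was the 1 gene of the 14 that was called, beside 0.932% of all genes. It was at 97.2, 82.6, 105 and 96.6 CPM in CTR and 118, 120, 142 and 162 CPM in CAC, with no overlap and a log2FC of 0.52 (SE 0.12, edgeR adjusted p = 0.0398). Its counts hold fractions of reads.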

How the data were processed

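The authors checked the reads with FastQC 0.11.9, aligned them to mm10 with HISAT2 2.2.1, both per the labels, and ran featureCounts, counting multi-mapping reads. The deposited table holds expected counts, reads per gene with fractions and no normalization, and 25.1% to 28.4% of the nonzero values per library are not whole. A further table of 24792 genes, deposited by the authors, holds a normalized signal, the count without its decimals divided by a size factor per library. Ensembl IDs were matched without version to GENCODE M21 (91.35% matched).

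Expected counts were rounded, filtered by filterByExpr, normalized by TMM and tested with edgeR 4.0.16 (limma 3.58.1, R 4.3.3) by its robust quasi-likelihood F test between CAC and CTR, without covariate, with Benjamini-Hochberg adjustment over 9876 genes at 0.05. Of the 40 members, 34 were tested and 6 were below the filter. In simulated data of these libraries, 39 of 50 genes raised by a log2 of 1, 50 of 50 raised by 2, 8 of 50 raised by 0.5 and 5 of 9454 unchanged genes were called. Exact permutation tests were two-sided over 70 assignments, with 0.0286 the smallest p. The members and lists were chosen with earlier results of these data known. Full statistics are given for members with an adjusted, then an unadjusted p below 0.05, and for Slc2a4, Slc2a1, Hk2, Pfkl, Pfkfb3, Gapdh, Pkm, Ldha, Txnip, Pfkm, Eno3 and Pgam2. Other lists are named by calls, or else by their 3 smallest p.

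The alternatives tried were upper quartile and library size normalization, DESeq2 1.42.0, other filters, the replicate block, limma-trend on log2 of the deposited signal plus 1, the log2 muscle sum as a covariate, an adjusted p of 0.1, 0.1 or 2 added to ratio counts, and each library left out. Dropping the decimals was chosen after seeing the data. Nothing says whether the mice were of separate litters or cages. Promoter sequences are from RefSeq (GRCm38.p6). Python 3.11.15, pandas 2.3.3, scipy 1.17.1 and matplotlib 3.10.9 were used.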

Additional observations from a re-analysis of the deposited data

Results flagged for a closer look

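Of 96 groups of 4 libraries examined, over the tested members, the ratios and the summed marker lists, 10 held a library far from the other 3 by Dixon's criterion, where chance flags about 1 in 20, or 4.8 groups. In CAC replicate 2, Pfkfb3 stood at 372 CPM and the other CAC libraries at 315 to 325 CPM, and Aldoa stood at 6913 CPM against 4608 to 4889 CPM. Tigar was at 16 CPM there against 11.9 to 12.5 CPM. CAC replicate 4 had Txnip at 153 CPM against 85.4 to 87.7 CPM, and Hk2 at 341 CPM against 448 to 467 CPM. CAC replicate 1 had Pygb at 100 CPM against 76.2 to 79.5 CPM, and a log2 ratio of Pygl to Pygb of 3.04 against 3.67 to 3.78. CTR replicate 2 had Hk1 at 25 CPM against 29.5 to 30.3 CPM, and a log2 ratio of Eno2 to Eno1 of -10.7 against -7.31 to -6.69, where Eno2 had no reads in that library. The summed brown adipocyte genes were at 21979 CPM in CTR replicate 4 against 19610 to 19651 CPM in the other CTR libraries.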

How the results depend on the processing

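The 6 members below the low-count filter rest on a few counts per library or none, so depth limits what they can show. Pfkfb3 was higher in CAC under every alternative run. So was Slc16a3 wherever it was tested. In fits with the low-count filter this is no sign of stability, since it passes that filter only through the CAC libraries. With no low-count filter its log2 fold change was 1.72 (SE 0.40, edgeR adjusted p = 0.00345), beside 1.74 (SE 0.40) in the main fit. The smaller adjusted p thus came with no larger effect. That fit called 351 of all genes, beside 92 in the main fit. Slc16a3 was called in 8 of 16 alternatives (edgeR, DESeq2 or limma adjusted p = 0.00345 to 0.543) and Pfkfb3 in 9 of 17 (0.0147 to 0.216). The causes of the changes below were not tested. Called members numbered 1 with upper quartile normalization, 1 with at least 10 counts in every library, where Slc16a3 was not tested, 1 with limma-trend and 0 with the muscle covariate. They numbered 0 to 2 with 1 library left out. Over all genes 351 were called with no low-count filter, 140 with the replicate block, 22 with the muscle covariate, 183 at an adjusted p below 0.1 and 42 (without CTR replicate 1) to 135 (without CTR replicate 3) with 1 library left out. Members with an unadjusted p below 0.05 numbered 3 to 7 higher and 0 to 3 lower with 1 library left out, and lower members 6 with no filter and 0 with the muscle covariate.

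Same-numbered CTR and CAC samples share only a number (correlations of deviations -0.0231 to 0.0355). With the replicate block 2 members were called, Slc16a3 and Pgam2 (log2 fold change 0.99, edgeR adjusted p = 0.000815). Pfkfb3 was not called there (log2 fold change 0.43, edgeR adjusted p = 0.0586). With no low-count filter Aldoa was called (log2 fold change 0.36, edgeR adjusted p = 0.00459), beside a log2 fold change of 0.39 in the main fit.

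Of 576 recomputed member log2 fold changes, 44 had the opposite sign, in 15 members, and 19 members kept their sign. None of those opposite values was called. With the muscle covariate they were -0.07 for Pgam2, 0.12 for Slc16a1, -0.38 for Eno3, 0.13 for Pgam1, -0.41 for Pfkm, 0.20 for Pygb, -0.27 for Ugp2, 0.01 for Pkm and -0.12 for Gys1. Gys1 was at -0.01 with upper quartile normalization and with no filter. Pgm1 was at -0.01 with library size normalization, -0.02 with upper quartile, -0.02 with no filter, -0.01 with the replicate block and -0.0040 with limma-trend. Pgd was at -0.02 with library size, -0.02 with upper quartile, -0.03 with no filter, -0.0029 with at least 10 counts, -0.01 with the replicate block and -0.01 with limma-trend. With 1 library left out the ranges were -0.21 to 0.03 for Pygb, -0.04 to 0.21 for Ugp2, -0.07 to 0.48 for Pfkfb4, -0.09 to 0.03 for Tpi1, -0.04 to 0.11 for Slc2a4, -0.09 to 0.05 for Pkm, -0.11 to 0.08 for Gys1, -0.02 to 0.03 for Ldhb, -0.07 to 0.08 for Pgm1 and -0.07 to 0.10 for Pgd. The log2 ratio of Pfkp to Pfkl then differed by -0.17 to 0.11, and that of Slc16a3 to Slc16a1 by 1.70 to 2.34 (exact permutation p = 0.0571, the smallest that 4 against 3 allows). The median over the tested members was 0.005 without the muscle-enriched forms and -0.013 to 0.069 with 1 library left out.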
